A study of Mus musculus with 12 samples.

Results

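The RNA of 10 genes of protein folding in the endoplasmic reticulum (ER) was followed in mouse leukaemic cells: the disulfide isomerases Txndc5, Pdia3, Pdia4, Pdia6 and P4hb, the chaperones Hspa5 and Hsp90b1, the cochaperone Dnajb9, and the lectin chaperones Calr and Canx. All 10 were found among the 41214 genes listed in the count files, and all 10 passed the filter on low counts that kept 13822 genes. They were chosen by the measured RNA level of Txndc5, which was known to be higher in the KD leukaemias, together with its ER partners. Every KD against KI value of a member is therefore given as a description, with no test. The RNA came from 4 mice with leukaemia, 1 library per mouse. The KD group is 2 mice labelled Gfi1 KD with genotype homo, and the KI group is 2 mice labelled Gfi1 KI with genotype het. The chromatin samples of the same study spell these genotypes Gfi1 KD/KD and Gfi1 KI/wt. In the mouse lines known by these names the altered allele carries the human GFI1 coding sequence, and KD stands for reduced expression of it. All 4 mice are of strain C57/BL6 NUP98-HOXD13, so that both groups carry the NUP98-HOXD13 fusion, a transgene that the widely used line of this name expresses from the blood-cell Vav1 promoter. The labels give no age, sex or tissue beyond leukaemic cells, and no mouse without leukaemia or without an altered Gfi1 allele. The chromatin libraries were not analysed here.

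Proteins that enter the secretory pathway fold in the ER. Hspa5 encodes BiP, an HSP70 chaperone that binds unfolded chains and keeps the stress sensors IRE1, PERK and ATF6 quiet. Calr and Canx hold newly made glycoproteins by their sugars while Pdia3 oxidises their cysteines, and the other isomerases form or reshuffle disulfide bonds. When unfolded protein builds up, ATF6 and XBP1 raise many of these genes together, a response named the unfolded protein response (UPR). In granulocyte precursors the load includes myeloperoxidase, whose precursor is a client of calreticulin, calnexin and Pdia3.

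A sequence that the members share was looked for first, since it does not depend on the RNA levels that chose them. The ER stress response element (ERSE) is a 19-base sequence to which NF-Y and ATF6 bind, made of CCAAT and CCACG with any 9 bases between them. It was first described in promoters of ER chaperone genes, Hspa5, Hsp90b1 and Calr among them, so its presence there is background rather than a result. It was searched on both strands of the 250 bases before each RefSeq start (GRCm38.p6 annotation). Each exact match holds a CCAAT box and a CCACG by construction. Hspa5, Hsp90b1, Pdia6, Calr and Canx held an exact match, 5 of the 10 members, whereas 35 of 27025 genes with such a window did (0.13%). Pdia3 and Pdia4 came within 1 of the 10 fixed letters, a distance that 1.51% of genes reached, and P4hb and Dnajb9 came within 2 (17.5% of genes). The nearest stretch of Txndc5, over its 3 listed starts, differed at 3 letters, as close as 76.6% of genes came. The nearest stretch of each member is shown here to compare them, read 5′ to 3′ on the genome strand given, with the fixed letters that match in capitals.
Hspa5, chr2:34772025-34772043, plus strand: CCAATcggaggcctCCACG
Hsp90b1, chr10:86705533-86705551, plus strand: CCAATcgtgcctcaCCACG
Pdia6, chr12:17266491-17266509, plus strand: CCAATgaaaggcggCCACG
Calr, chr8:84847075-84847093, plus strand: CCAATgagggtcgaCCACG
Canx, chr11:50325800-50325818, minus strand: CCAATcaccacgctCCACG
Pdia3, chr2:121413873-121413891, plus strand: CCAATcggcggctgCCACa
Pdia4, chr6:47813602-47813620, plus strand: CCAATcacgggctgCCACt
P4hb, chr11:120573368-120573386, minus strand: CCAgTcagaatgcaaCACG
Dnajb9, chr12:44210172-44210190, minus strand: gCAAcaacagttttCCACG
Txndc5, chr13:38528502-38528520, plus strand: tCAATcacgcccccgCtCG

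The exact matches lay between 65 bases (Hspa5) and 212 bases (Hsp90b1) before the start, counted to the end of the match farther from it. Hsp90b1 was the 1 member with 2 exact matches, on opposite strands. Its 250 bases are printed with those of Hspa5 to show where the elements sit, with the fixed letters of each exact match in capitals and both sequences on the strand of the gene.
Hspa5, chr2:34771840-34772089, plus strand: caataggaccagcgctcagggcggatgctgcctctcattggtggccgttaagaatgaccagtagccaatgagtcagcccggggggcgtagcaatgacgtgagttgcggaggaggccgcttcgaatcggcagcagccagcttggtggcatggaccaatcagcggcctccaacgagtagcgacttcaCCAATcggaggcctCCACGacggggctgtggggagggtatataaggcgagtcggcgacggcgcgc
Hsp90b1, chr10:86705445-86705694, minus strand: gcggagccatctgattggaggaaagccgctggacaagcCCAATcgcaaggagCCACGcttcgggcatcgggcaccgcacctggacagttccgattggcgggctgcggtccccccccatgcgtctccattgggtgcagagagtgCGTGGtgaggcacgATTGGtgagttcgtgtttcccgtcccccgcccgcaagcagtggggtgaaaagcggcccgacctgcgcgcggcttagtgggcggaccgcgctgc

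The bare CCAAT box was present in 9 of the 10 members and in 37.5% of genes, and Txndc5 was the member without one in any of its 3 windows. An exact TGACGTGG, the letters of the UPR element bound by XBP1 and ATF6, occurred in 1 member, Txndc5, before the third of its listed starts, and in 0.603% of genes. ERSE-II, which is ATTGG and CCACG with any 1 base between them, occurred in 0 members and in 0.037% of genes. In the other folding lists the exact ERSE was found before Dnajc3 and Creld2 (2 of 20 genes with a window among BiP cochaperones and folding factors), before Ero1b (1 of 25 isomerases and redox genes) and before Syvn1 and Derl3 (2 of 19 degradation genes). A match describes the letters alone. The map of motif positions shows the elements along each window.

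**Figure D1:**
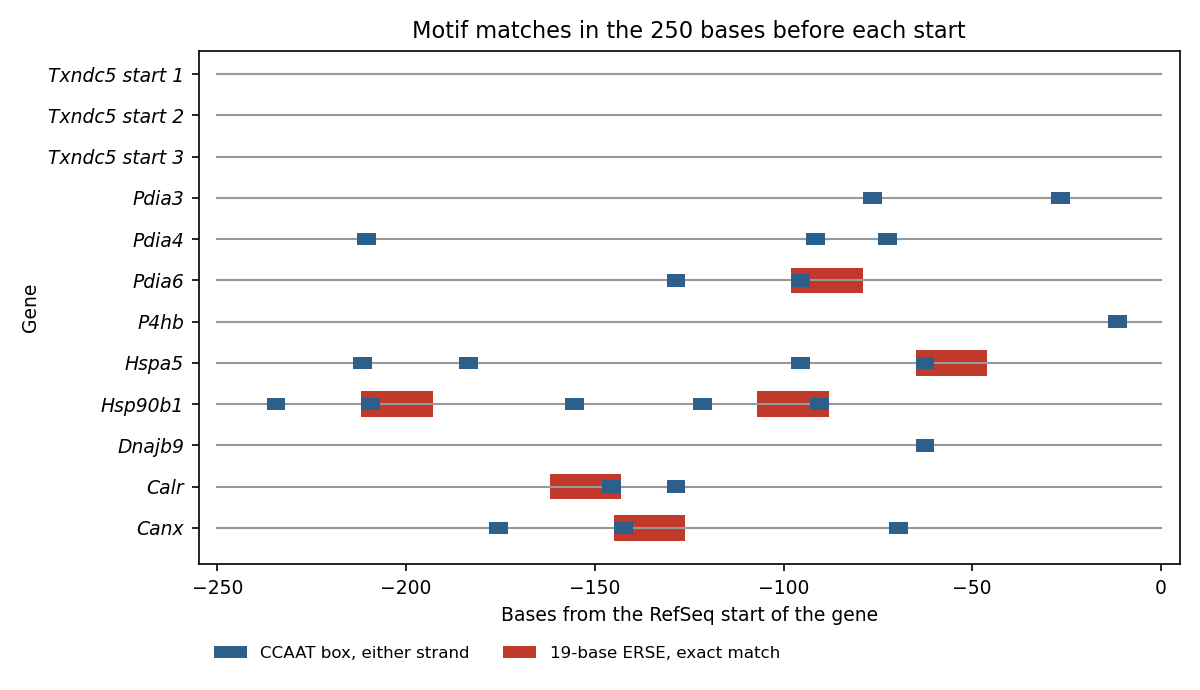
Positions of exact 19-base ERSE matches (red) and of CCAAT boxes on either strand (blue) in the 250 bases before each RefSeq start, with distance from the start in bases on the x axis and 1 row per start. The 5 genes with an ERSE are Pdia6, Hspa5, Hsp90b1 (2 matches), Calr and Canx, and none of the 3 windows of Txndc5 holds a CCAAT box.

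Counts in genes came to 11934542 and 10263454 in the KD libraries, and to 4581593 and 10869534 in the KI libraries. Of uniquely aligned reads, 63.2% to 88.3% lay in no gene, with the highest share in KI replicate 1. Loci over satellite-like repeats took 20.2% and 21.9% of gene counts in KD, against 40.5% and 45.8% in KI, so the scaling between genotypes bears on every level given here. Mouse Gfi1 stood at 7.22 and 1.12 CPM (gene counts relative to the library total, scaled by TMM) in KD, against 36.2 and 89.0 CPM in KI. Whether these counts include reads from the altered allele was not tested, so they do not give the total of GFI1. The blood-cell genes Ptprc, Spi1 and Mpo were counted in every library, with Mpo at 1397 and 2177 CPM in KD, against 897 and 2040 CPM in KI.

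Most of the members had more mRNA in the KD leukaemias. In 8 of the 10 members both KD libraries lay above both KI libraries, while 2009 of 13822 genes did so (14.5%), and 24.4% of the 3429 genes that averaged at least 50 CPM. The comparison chose the members, so nothing is read from these counts. The summed level of the 10 members was 2988 and 4278 CPM in KD, against 2041 and 2501 CPM in KI, a ratio of means of 1.60. Their median log2 fold change, KD over KI, was 0.70, beside -0.06 for all genes tested and 0.13 for genes of at least 50 CPM. A value above 0.5 was found in 8 members and in 10.3% of all genes. As a share of each library's total, which is scaling by library size only, the members took 0.354% and 0.483% of gene counts in KD, against 0.192% and 0.194% in KI. With the satellite loci left out of the total the shares were 0.443% and 0.618% in KD, against 0.323% and 0.358% in KI. The groups did not overlap in either share, and the distance between them depends on which loci are in the total. With library size only, both KD libraries lay above both KI libraries in 42.3% of all genes tested, beside 14.5% with TMM. The lack of overlap in these shares is therefore given without a reading. In bulk RNA, more cells that express a gene and more RNA per cell cannot be told apart.

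**Figure D2:**
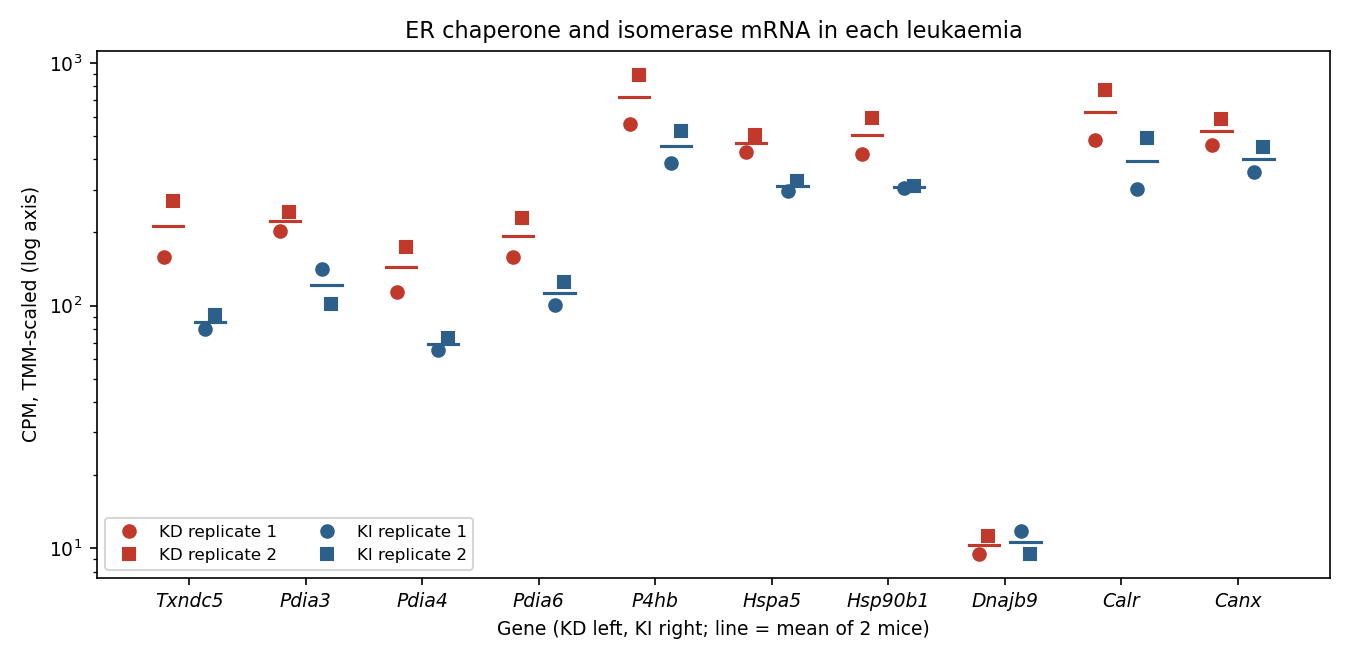
TMM-scaled CPM (log axis) of each member in the 4 libraries, KD in red left of KI in blue, circles for replicate 1, squares for replicate 2 and a line at the mean of 2 mice. The KD points lie above the KI points for 8 members, Calr overlaps narrowly, and Dnajb9 lies between 9.48 and 11.8 CPM in every library.

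Among the isomerases, Txndc5 was the gene that set the choice. It encodes a thioredoxin-domain isomerase of the ER, also named ERp46 (ENSMUSG00000038991, GRCm38 chromosome 13, 38500266 to 38528824). Its level was 158 and 269 CPM in KD, against 79.8 and 91.0 CPM in KI, from 2235 and 3116 counts in KD and 344 and 767 counts in KI. The lower KD library stood 1.74 times above the higher KI library. The means were 214 ± 78.5 CPM in KD and 85.4 ± 7.93 CPM in KI (SD, n = 2 each), and the fitted log2 fold change was 1.32 ± 0.35 (SE). Of all genes tested, 1.27% had a higher one.

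Pdia4, an isomerase also named ERp72, stood at 113 and 174 CPM in KD, against 65.6 and 73.6 CPM in KI. Both KD libraries were above both KI libraries, and the log2 fold change was 1.04 ± 0.32 (SE). Pdia3, or ERp57, the oxidoreductase that works with calnexin and calreticulin, stood at 204 and 243 CPM in KD, against 141 and 101 CPM in KI (0.88 ± 0.31). The KI libraries of Pdia3 differed from each other by more than its KD libraries did. Pdia6, which also acts on the stress sensors IRE1 and PERK, stood at 159 and 228 CPM in KD, against 101 and 125 CPM in KI (0.78 ± 0.32). P4hb, the founding protein disulfide isomerase and a subunit of collagen prolyl hydroxylase, stood at 559 and 893 CPM in KD, against 385 and 524 CPM in KI (0.68 ± 0.39). Its lower KD library was only 1.07 times its higher KI library, so the groups of P4hb barely separated.

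Hspa5, or BiP, stood at 429 and 503 CPM in KD, against 296 and 325 CPM in KI, with means of 466 ± 52.6 CPM in KD and 310.3 ± 20.7 CPM in KI (SD, n = 2 each). The 4 values of Hspa5 fell into separate groups, and the log2 fold change was 0.59 ± 0.30 (SE). Hsp90b1 encodes the HSP90 of the ER, which folds Toll-like receptors and integrins. It stood at 420.0 and 593 CPM in KD, against 306 and 309.9 CPM in KI (0.72 ± 0.33). The KI libraries were close together and both KD libraries lay higher.

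Dnajb9 was the 1 member with a negative log2 fold change in the edgeR fit of all 4 libraries. It encodes a J-domain partner of BiP that holds IRE1 in check and is itself raised by XBP1. It stood at 9.48 and 11.2 CPM in KD, against 11.8 and 9.49 CPM in KI, from 134 and 130 counts in KD and 51 and 80 counts in KI. The groups overlapped fully, with a log2 fold change of -0.04 ± 0.42 (SE). Of the 10 members it had the fewest counts in every library.

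The lectin chaperones gave smaller or less even differences. Calr, soluble in the ER lumen, stood at 480.0 and 775 CPM in KD, against 301 and 490.2 CPM in KI (log2 fold change 0.67 ± 0.42, SE). KD replicate 1 lay at 0.979 of KI replicate 2, so the groups of Calr overlapped. Canx, its membrane-bound relative, stood at 457 and 588 CPM in KD, against 354 and 452 CPM in KI (0.37 ± 0.33). The lower KD value of Canx was 1.01 times the higher KI value. Of the genes that overlap or resemble a member, Rabepk, which overlaps Hspa5, had 42 to 198 counts per library. Bmp6, Catsper2, Atp6v1c2 and the pseudogene Calr-ps each had at most 16. Counts of Gm31834, which overlaps Txndc5, were not looked at. How many reads lying on both a member and its neighbour went uncounted was not tested. Whether counting used the strand is not given in the sources used here.

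Over all genes, edgeR's quasi-likelihood test at an adjusted p under 0.05 called 0 of the 13822 in either direction (0%). DESeq2 called 5 genes higher (0.0362%) and 139 lower (1.01%), and limma-voom called 0 (0%). At an unadjusted p under 0.05, edgeR had 178 genes higher (1.29%) and 1153 lower (8.34%). DESeq2 had 279 higher (2.02%) and 1303 lower (9.43%), and limma-voom 269 higher (1.95%) and 752 lower (5.44%). As this contrast chose the members, no call is read for any of them.

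**Figure D3:**
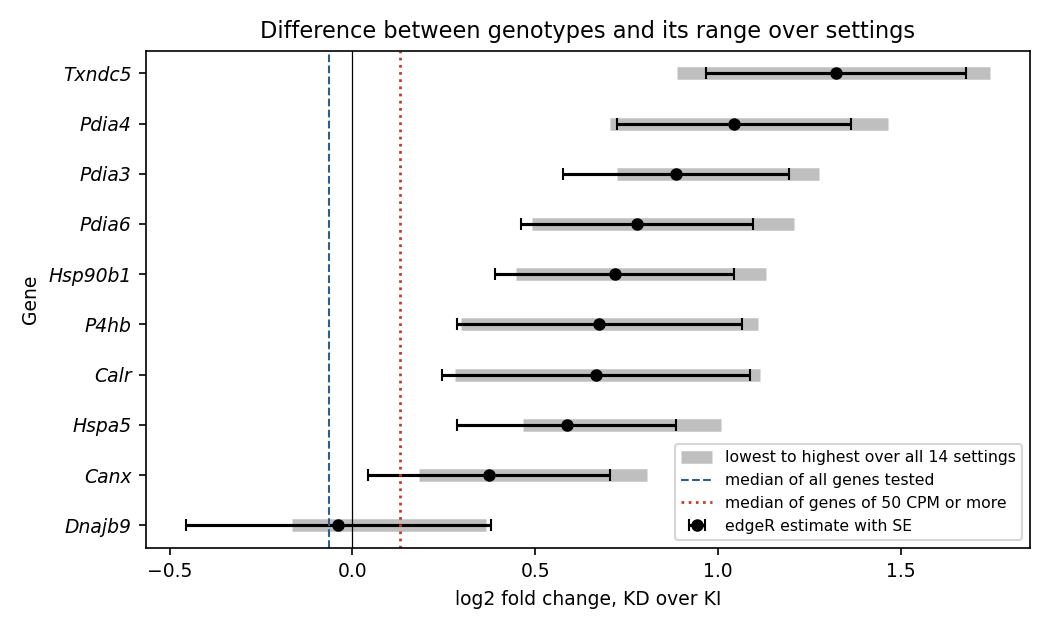
Log2 fold change, KD over KI, for each member (x axis) with its standard error in edgeR (black) and the lowest to highest value over 14 settings (grey bar), beside the medians of all genes and of genes of at least 50 CPM. Txndc5 is highest at 1.32, Dnajb9 lies at -0.04, and for the other 9 members every setting gave a positive value.

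Counts set against another member in the same library need no scaling between libraries. Txndc5 was picked for being higher in KD, so its ratios to its partners describe that choice and carry no test. Per 100 counts of Hspa5, Txndc5 had 36.9 and 53.5 in KD, against 27.0 and 28.0 in KI, and Pdia4 had 26.5 and 34.5 in KD, against 22.2 and 22.6 in KI. Both ratios were higher in both KD libraries. Per 100 counts of Canx, Txndc5 had 34.6 and 45.8 in KD, against 22.5 and 20.1 in KI, while Pdia6 had 34.7 and 38.9 in KD, against 28.4 and 27.7 in KI. Hsp90b1 per 100 counts of Hspa5 was 98.0 and 118 in KD, against 104 and 95.4 in KI, so this pair overlapped. Dnajb9 per 100 counts of Canx was 2.08 and 1.91 in KD, against 3.34 and 2.10 in KI, lower in both KD libraries, though by little against KI replicate 2.

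As a share of all counts on the 10 members, Txndc5 made up 5.29% (95% Wilson interval 5.08% to 5.51%) and 6.29% (6.08% to 6.51%) in KD, against 3.91% (3.52% to 4.33%) and 3.64% (3.39% to 3.90%) in KI. The intervals cover counting error within a library, not the spread between mice. Canx made up 15.3% and 13.7% in KD, against 17.4% and 18.1% in KI, the reverse order. P4hb made up 18.7% and 20.9% in KD, against 18.9% and 21.0% in KI, with the groups overlapping.

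**Figure D4:**
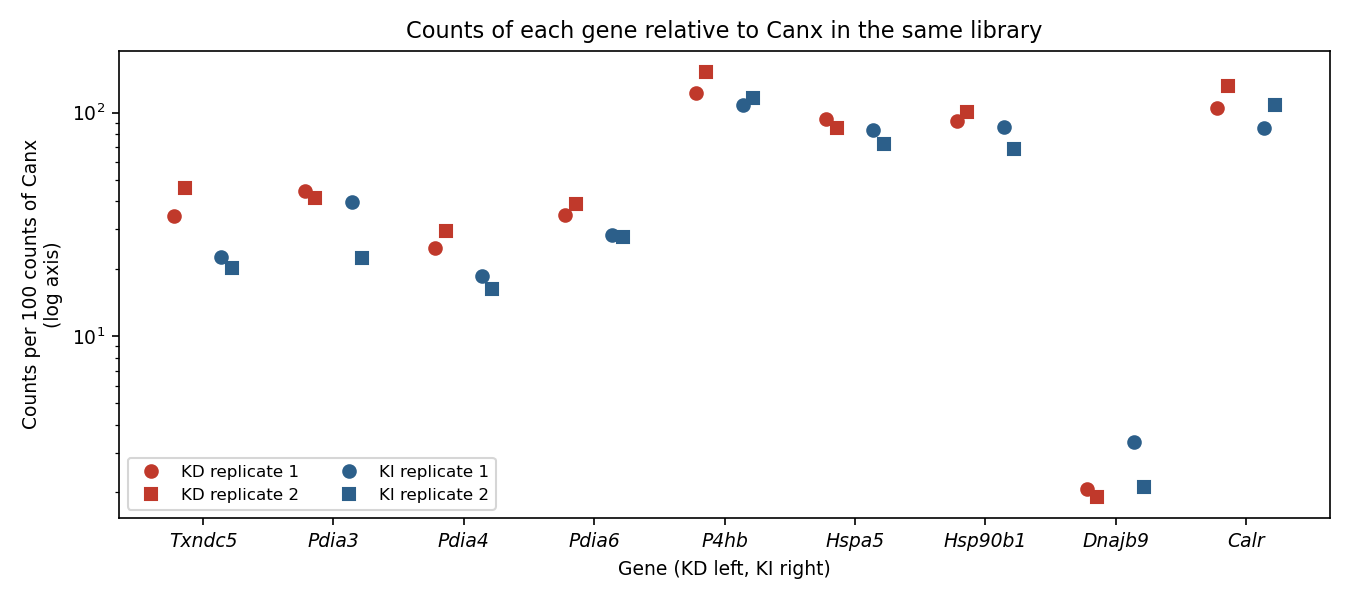
Counts of each member per 100 counts of Canx in the same library (log axis), KD in red left of KI in blue, circles for replicate 1 and squares for replicate 2. Txndc5 stands at 34.6 and 45.8 in KD against 22.5 and 20.1 in KI, and Dnajb9 is the 1 gene with both KD points below both KI points.

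The 2 KD leukaemias differed from each other. All 10 members were higher in KD replicate 2 than in KD replicate 1, by 1.17 times (Hspa5) to 1.70 times (Txndc5), with a median of 1.43. Of genes of at least 50 CPM, 58% were higher in KD replicate 2, with a median ratio of 1.06. Between the KI leukaemias 8 of 10 members were higher in replicate 2, as were 66.2% of genes of at least 50 CPM. The median ratio was 1.13 for the members, from 0.716 (Pdia3) to 1.63 (Calr), against 1.21 for genes of at least 50 CPM. These are single libraries and carry no test. Without KD replicate 2, the log2 fold change was 0.89 for Txndc5, 0.75 for Pdia3, 0.70 for Pdia4, 0.49 for Pdia6 and 0.30 for P4hb. It was 0.47 for Hspa5, 0.45 for Hsp90b1, 0.28 for Calr, 0.18 for Canx and -0.17 for Dnajb9, lower for all 10 members than with all 4 libraries. Without KI replicate 2, Calr stood at 1.11 and Canx at 0.62.

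Markers of other cells also differed between the libraries. Plasma cells carry much ER, and 11 of their genes (8 passing the count filter) summed to 101 and 222 CPM in KD, against 80.0 and 145 CPM in KI. The sum was highest in KD replicate 2. Of these sums, Tnfrsf13b alone held 87.6 and 83.6 CPM in KD, against 39.0 and 102 CPM in KI. For 0 of the 11 genes did both KD libraries lie above both KI libraries. In KD replicate 2 Ighg1 stood at 67.6, Igkc at 46.2 and Jchain at 13.8 CPM. In KD replicate 1 Ighg1 was listed at 0, Igkc at 2.41 and Jchain at 1.13 CPM. KI replicates 1 and 2 had 0.232 and 17.8 CPM of Ighg1, 10.7 and 14.1 CPM of Igkc and 9.74 and 4.63 CPM of Jchain. Tnfrsf17 had 1 count in all 4 libraries together. In KD replicate 1 Igkc and Jchain lay below both KI libraries.

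Neutrophil genes summed to 3281 and 1437 CPM in KD, against 15040 and 16130 CPM in KI, with 7 of 8 lower in both KD libraries. Monocyte and macrophage genes summed to 1573 and 1527 CPM in KD, against 1238 and 923 CPM in KI. Erythroid genes summed to 64.7 and 3.37 CPM in KD, against 464 and 459 CPM in KI. The 10 genes listed for myeloid progenitors, Ptprc among them, summed to 3649 and 3735 CPM in KD, against 2675 and 3200 CPM in KI. T cell genes summed to 10.7 and 16.4 CPM in KD, against 67.5 and 62.2 CPM in KI, with 5 of 8 lower in both KD libraries. Cd3e alone held 37.25 CPM of the sum in KI replicate 2, against 6.26 CPM in KI replicate 1. The B cell, megakaryocyte, eosinophil and mast cell, and stromal sums lay between 3.63 and 175 CPM. For B cells the KD sums (116.3 and 175.2 CPM) lay above the KI sums (106.5 and 115.6 CPM), and for the other 3 lists the groups overlapped. Of the B cell sums, Ighm alone held 97.0 and 151.1 CPM in KD, against 59.6 and 82.45 CPM in KI. It was the 1 of 10 B cell genes with both KD libraries above both KI libraries, while 2 had both below. No marker was at 0 in every library. The part of cell makeup in the members' values was not tested.

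Other genes, which the rule did not use, were read from 11 lists with 209 distinct genes tested, named pathway genes below. Besides genes of the secretory pathway they include ATF4 targets, clients of Hsp90b1, and chaperones of the cytosol and mitochondria. In edgeR 0 of them passed an adjusted p of 0.05 in either direction, while 9 had an unadjusted p under 0.05 higher in KD and 3 lower (all genes: 1.29% higher, 8.34% lower). DESeq2 called 0 higher and 1 lower, Slc7a11, the cystine importer. Of the 209, 151 had a positive log2 fold change, and in 63 both KD libraries lay above both KI libraries (all genes: 44.5% and 14.5%; genes of at least 50 CPM: 67% and 24.4%). The median was 0.22, beside -0.06 for all genes tested and 0.13 for genes of at least 50 CPM. The lists also hold genes below 50 CPM, so neither background matches them in level. The lists were chosen with earlier results of these data known, and the medians are given as a description.

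Of the partners of BiP and other folding factors, 0 of 20 were called, 19 were positive and 10 lay above in both KD libraries. Among all genes tested, 44.5% were positive and 14.5% lay above in both KD libraries. Among genes of at least 50 CPM, a floor that the list does not have, the shares were 67% and 24.4%. The list median was 0.46, or 0.21 without KD replicate 2 and 0.72 without KI replicate 2. Dnajc10, a J-domain disulfide reductase, stood at 172 and 268 CPM in KD, against 103 and 64.7 CPM in KI (log2 fold change 1.39 ± 0.38, SE). Sdf2l1, a BiP cofactor, had 54.7 and 76.1 CPM in KD, against 26.9 and 36.4 CPM in KI (1.04 ± 0.33), and Hyou1, the nucleotide exchange factor of BiP, 169 and 215 CPM in KD, against 106 and 121 CPM in KI (0.76 ± 0.29). All 3 separated the groups, each with adjusted p = 0.518 in edgeR. Dnajc3 and Creld2, which hold the exact ERSE, had 0.53 ± 0.26 and 0.44 ± 0.40.

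Of 24 other isomerases and redox genes, 0 were called and 16 were positive (all genes 44.5%, genes of at least 50 CPM 67%). The median was 0.34, or 0.13 without KD replicate 2 and 0.54 without KD replicate 1. Erp29 stood at 177 and 234 CPM in KD, against 115 and 130 CPM in KI (log2 fold change 0.75 ± 0.29), and Prdx4, a peroxiredoxin that feeds disulfide formation, at 25.8 and 43.0 CPM in KD, against 10.9 and 19.6 CPM in KI (1.16 ± 0.45), both with adjusted p = 0.518 in edgeR. Tmx4, a membrane-bound relative, lay the other way, at 95.9 and 119 CPM in KD, against 136 and 251 CPM in KI (-0.85 ± 0.38, edgeR adjusted p = 0.546), and stood at -0.27 without KI replicate 2. Prdx4 was 0.75 without KD replicate 2. Ero1a, the oxidase that recharges P4hb, listed here as Ero1l, had -0.67 ± 0.41 with overlapping groups.

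In the calnexin cycle and glycan transfer list 0 of 24 were called, 20 were positive and 12 lay above in both KD libraries. Of all genes 44.5% were positive and 14.5% lay above, and of genes of at least 50 CPM 67% and 24.4%. The median was 0.46, or 0.17 without KD replicate 2 and 0.69 without KI replicate 2. Ddost, a subunit of the oligosaccharyltransferase, stood at 170.0 and 269 CPM in KD, against 93.9 and 111 CPM in KI (log2 fold change 1.10 ± 0.34, edgeR adjusted p = 0.518). Rpn2, of the same enzyme, had 0.86 ± 0.36 (edgeR adjusted p = 0.531), and Uggt1, which returns misfolded glycoproteins to the lectins, 0.80 ± 0.35 (edgeR adjusted p = 0.534). Without KD replicate 2 Ddost stood at 0.73 and Rpn2 at 0.48, and without KI replicate 1 Uggt1 stood at 1.33. The 13 tested clients of Hsp90b1 had a median of 0.51, with 11 positive (all genes 44.5%, genes of at least 50 CPM 67%) and 0 called. They were led by Tlr9 at 0.93 ± 0.54, Tlr1 at 0.86 ± 0.48 and Itgal at 0.85 ± 0.49 (edgeR adjusted p = 0.66, 0.638 and 0.658). That median was 1.36 without KI replicate 1, 0.88 without KD replicate 2, 0.09 without KI replicate 2 and 0.10 without KD replicate 1. Itgal was 0.09 without KD replicate 1 and 1.35 without KD replicate 2. Without KI replicate 1 Tlr9 was 1.76 and Tlr1 1.60, and without KI replicate 2 they were 0.52 and 0.49.

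The sensors and transcription factors of the UPR had a median of 0.27, or 0.13 without KD replicate 2. Of these 15 genes, 12 were positive (all genes 44.5%, genes of at least 50 CPM 67%) and 0 called. Atf6b stood at 73.0 and 84.2 CPM in KD, against 45.7 and 39.4 CPM in KI (log2 fold change 0.89 ± 0.28, edgeR adjusted p = 0.518), and Atf6 had 0.60 ± 0.30 (edgeR adjusted p = 0.591), or 0.99 without KI replicate 1. Xbp1 stood at 172 and 206 CPM in KD, against 130 and 183 CPM in KI, with overlapping groups (0.27 ± 0.31). Gene counts do not show whether Xbp1 mRNA was spliced by IRE1. Ddit3, the stress factor CHOP, lay lower, at 5.17 and 4.58 CPM in KD, against 8.58 and 9.85 CPM in KI (-0.92 ± 0.48, edgeR adjusted p = 0.604).

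Targets of ATF4, the factor downstream of PERK, were the 1 list with a negative median, -0.20 over 20 genes with 6 positive and 0 called. Positive values made up 44.5% of all genes and 67% of genes of at least 50 CPM. The median was 0.23 with library size only, 0.07 without KD replicate 1 and 0.20 without KI replicate 2. Slc7a11 stood at 2.05 and 1.81 CPM in KD, against 22.5 and 6.53 CPM in KI (log2 fold change -2.89 ± 0.74, edgeR adjusted p = 0.518). Trib3, below the 5 CPM needed for naming and given after its values were seen, had 0.142 and 0.605 CPM in KD, against 4.17 and 4.51 CPM in KI (-3.53 ± 0.96). Cebpb, a transcription factor of myeloid cells as well, lay the other way (0.75 ± 0.29, edgeR adjusted p = 0.518), and Atf5 had -0.87 ± 0.55 (edgeR adjusted p = 0.695). Slc7a11 was -1.61 without KI replicate 1, and Atf5 was -0.12 without KI replicate 2.

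Degradation genes had a median of 0.14 over 25 genes, led by Edem2 (log2 fold change 0.76 ± 0.35, edgeR adjusted p = 0.549), and translocation genes 0.18 over 23, with Ssr2 at 0.65 ± 0.37, Spcs3 at 0.48 ± 0.26 and Ssr3 at 0.38 ± 0.26. Edem3 and Os9, of the degradation list, had 0.43 ± 0.26 and 0.48 ± 0.31. The calcium store list had 0.23 over 15, with the calcium-binding Rcn1 lower (-1.25 ± 0.40, edgeR adjusted p = 0.518), the channel Itpr3 at 0.69 ± 0.37 and Saraf at 0.38 ± 0.34. MHC class I loading had 0.12 over 8, with Erap1 at 0.57 ± 0.27, Tapbp at 0.51 ± 0.34 and Tapbpl at 0.40 ± 0.38. Chaperones of the cytosol and mitochondria had 0.03 over 22, with Hspa8 at 0.73 ± 0.34, Cct5 at 0.32 ± 0.39 and Hspa4 at 0.30 ± 0.29. No gene of these 5 lists passed edgeR's test. The cytosolic and mitochondrial median was -0.02 with upper quartile scaling and -0.03 over genes of at least 5 CPM in 2 libraries. Without KD replicate 2 it was -0.22, that of translocation -0.05 and that of MHC class I loading -0.20, and without KI replicate 1 the cytosolic and mitochondrial median was -0.27. The calcium store median was 0.02 without KD replicate 2. Without KI replicate 2 the medians were 0.39 for degradation, 0.55 for translocation and 0.71 for the cytosol and mitochondria.

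Several genes named from these 5 lists also rested on 1 library. Without KD replicate 2 the log2 fold change was 0.36 for Edem2, 0.18 for Os9, 0.28 for Ssr2, 0.32 for Itpr3, 0.02 for Saraf, 0.13 for Tapbpl and 0.13 for Cct5. Tapbp was 1.06 without KI replicate 1 and 0.25 without KI replicate 2, and Edem3 was 0.66 without KI replicate 1. Cct5 was 0.07 without KI replicate 1 and 0.89 without KI replicate 2, where Hspa4 was 0.59.

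**Figure D5:**
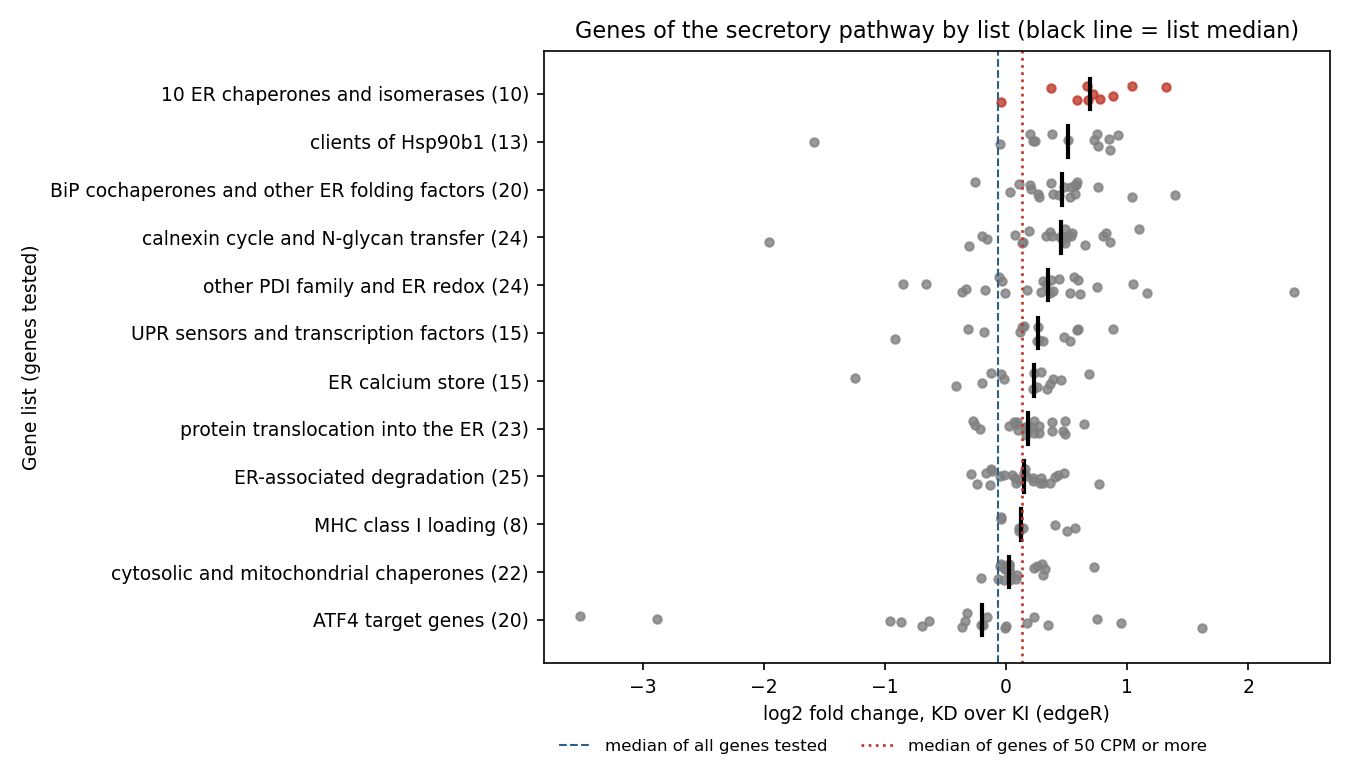
Log2 fold change, KD over KI, of each tested gene (dots, x axis) in 11 lists and in the 10 members (red), with list medians as black lines and the medians of all genes and of genes of at least 50 CPM as vertical lines. The members' median of 0.70 lies right of the 11 list medians, which run from -0.20 (ATF4 targets) to 0.51 (clients of Hsp90b1).

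Among the genes whose profile over the 4 libraries was most like Txndc5 were S100a10, Ddost, Pdia4 and Lgals1, at Euclidean distances of 0.216 to 0.297 in centred log2(CPM + 1), out of 6405 genes of at least 20 CPM. Pdia4 ranked 4th, Pdia6 39th and Hsp90b1 61st by this measure, and Canx 461st. Among those nearest to Hspa5 were Nup98, Alms1, Usf1 and Limk1, at 0.0345 to 0.0614, and its nearest member was Hsp90b1, in rank 167. Dnajb9 was below the 20 CPM floor. With 4 libraries many genes share such a profile, and Txndc5 was chosen for its own.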

How the data were processed

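Gene counts were deposited by the authors as raw counts per Ensembl gene. Build GRCm38 and, as tools, HTSeq, DESeq, SAMtools and TopHat2 2.0.10 are listed in the submitters' processing notes, and the libraries were TruSeq Stranded mRNA, per the labels' protocols. Neither strand setting nor annotation release is given in the sources used here. Summary entries that name no gene held 93.2% to 97.9% of each file's total and were left out. Of 41214 IDs, 40254 matched a symbol. The 1616 columns of 4 chromatin tables name neither antibody nor mouse and are not used here.

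In R 4.3.3, genes kept by filterByExpr (13822) were scaled by TMM (factors 1.19 and 1.13 in KD, 0.957 and 0.778 in KI) and tested with edgeR 4.0.16 glmQLFit and glmQLFTest, genotype as the only term, Benjamini-Hochberg adjustment over all genes, threshold 0.05. CPM values are TMM-scaled. The p-values rest on the spread between 2 mice per genotype, which edgeR draws for each gene towards a trend over all genes. An exact permutation test of 2 against 2 cannot go below p = 0.333, so none was run. DESeq2 1.42.0, limma-voom (limma 3.58.1), 3 other scalings, 2 other filters, a replicate block, leaving out satellite-like loci and leaving out each library were alternatives.

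The members and lists were chosen with earlier results of these data known. Named genes were the 10 members, Gfi1, and in each list the 3 genes of at least 5 CPM with the lowest p; others (among them Xbp1, Trib3, Ero1l and motif holders) were chosen after their values were seen. For likeness of profile the rule named the 5 genes nearest to Txndc5 and to Hspa5, of which 1 each is not reported here. Gene positions and promoter windows are RefSeq's (GRCm38.p6); all 10 members matched. Exon lengths were not used here, so levels are not ordered between genes.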

Additional observations from a re-analysis of the deposited data

How the results depend on the processing

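For 9 of the 10 members the log2 fold change was positive in all 14 settings; Dnajb9 was positive in 7 of 14, from -0.17 without KD replicate 2 to 0.37 with library size only. The members' median of 0.70 was 1.12 with library size only and 0.88 with no low-count filter, and ran from 0.46 to 0.97 without each library in turn. The median of all genes was -0.06 with TMM and 0.37 with library size only. The members' median minus that of all genes was 0.76 in the edgeR fit of all 4 libraries, 1.64 with no low-count filter and 0.63 to 1.01 without each library. Scalings that move all genes alike leave this difference nearly fixed by construction. Genes called higher in KD numbered 0 in the edgeR fit of all 4 libraries, 29 with no low-count filter, 5 in DESeq2, and 3 to 149 without each library (3 without KD replicate 1, 10 without KD replicate 2, 149 without KI replicate 1, 13 without KI replicate 2). Genes called lower numbered 0, 140, 139 and 29 to 774 (79, 29, 104 and 774) in the same order. The filter was kept fixed without each library, and the lone mouse of a genotype is assumed to vary like the other group. Of the 209 pathway genes, 0 to 3 were called higher without each library (Txndc16, Creb3l2 and Tlr4, without KI replicate 1) and 0 to 1 lower (Slc7a11, without KI replicate 2), and DESeq2 called 1 lower. The cause of these differences was not tested.

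A fit blocked on replicate number gave 0 calls higher, 7 lower and 0 among pathway genes. The labels do not say that a number marks a shared litter or day, and with 2 pairs the correlation of same-numbered deviations was 0.305 over genes. Levels per length were not run. KI replicate 1 had the fewest gene counts, 4581593, and Dnajb9 rests on 51 to 134 counts per library.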
